A study of Drosophila melanogaster with 3 samples.

Results

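The 10 genes described here encode insulator and boundary proteins of Drosophila melanogaster: Chro, Cp190, mod(mdg4), BEAF-32, su(Hw), CTCF, pita, ZIPIC, Ibf1 and Ibf2, out of 13945 protein-coding genes and 18164 genes of all kinds on the 6 arms used. They were chosen by symbol in the Ensembl release 115 annotation, after the promoter peaks of a longer insulator list and the pooled signals of Chro and Cp190 had been seen, so the counts and ranks of their peaks are given as a description, with no test. The data were peak lists from chromatin immunoprecipitation followed by sequencing, with the protein of CG15011 as the labelled target. All 3 biological replicates form 1 group: whole embryos, mixed male and female, aged 0 to 24 hours, from a transgenic line that carries green fluorescent protein joined to the C-terminal end of CG15011. Whole embryos mix all cell types, so a peak does not show in which cells the protein lay.

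Insulator proteins bind DNA between regulatory domains and limit which enhancers and promoters act on each other. In flies, sequence-specific factors such as BEAF-32, CTCF, su(Hw), pita, ZIPIC, Ibf1 and Ibf2 bind their own sites and bring in shared partners, among them Cp190 and mod(mdg4), both with a BTB domain, and the chromodomain protein Chro. Many of these proteins are known to lie at the promoters of housekeeping genes and at the borders of topological domains. The data below concern the genes that encode them and not the sites they bind.

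The sequences at which the results turn are shown first, each read 5′ to 3′ on the strand of the insulator gene (minus in every case) from the RefSeq copy of Release 6, the dm6 assembly. They are the 104 bases between the outermost start of Chro and the start of its neighbour Ssl1 (chr3L:22878985-22879088), the 280 bases between Cp190 and CG4338 (chr3R:15275242-15275521), the 135 bases from the summit of the peak inside mod(mdg4) to the start of the precursor genes on the other strand (chr3R:21365474-21365608), 300 of the 499 bases between su(Hw) and Polr2I (chr3R:14308789-14309088), and, as a promoter with no peak in any list, the 132 bases upstream of ZIPIC up to the next gene (chr3R:30036871-30037002). Capitals mark matches to any of the 8 motifs searched, which are spelled out with the motif counts.
Chro upstream: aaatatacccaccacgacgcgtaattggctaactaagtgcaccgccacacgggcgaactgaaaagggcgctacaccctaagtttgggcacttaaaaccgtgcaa
Cp190 upstream: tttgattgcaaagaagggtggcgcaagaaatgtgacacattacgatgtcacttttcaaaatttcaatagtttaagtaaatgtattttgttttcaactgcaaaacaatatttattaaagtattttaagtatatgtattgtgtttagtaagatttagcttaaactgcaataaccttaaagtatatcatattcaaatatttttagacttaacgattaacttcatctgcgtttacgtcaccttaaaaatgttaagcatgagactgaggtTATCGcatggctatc
mod(mdg4) inner peak: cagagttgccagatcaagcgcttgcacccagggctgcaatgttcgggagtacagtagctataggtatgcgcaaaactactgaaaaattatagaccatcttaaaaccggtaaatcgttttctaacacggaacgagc
su(Hw) upstream: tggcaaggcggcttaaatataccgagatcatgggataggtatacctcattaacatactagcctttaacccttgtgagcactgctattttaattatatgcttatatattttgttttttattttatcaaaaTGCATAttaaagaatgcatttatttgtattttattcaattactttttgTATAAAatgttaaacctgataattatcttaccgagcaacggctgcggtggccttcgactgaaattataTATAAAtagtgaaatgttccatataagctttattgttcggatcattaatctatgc
ZIPIC upstream: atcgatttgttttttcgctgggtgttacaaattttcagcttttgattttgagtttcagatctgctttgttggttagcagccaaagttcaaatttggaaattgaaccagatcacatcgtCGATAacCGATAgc
The Chro stretch and the mod(mdg4) stretch held no match. The Cp190 stretch held 1 CGATA, the su(Hw) stretch 1 TGCATA and 2 TATAAA, and the ZIPIC stretch 2 CGATA. The su(Hw) stretch is the end of the gap next to Polr2I. Its TGCATA and TATAAA matches lie outside the su(Hw) promoter window of the motif counts below, where su(Hw) has neither motif. The GC content was 51% for Chro and 45.2% for mod(mdg4), against 28.9% for Cp190, 30.3% for su(Hw) and 37.1% for ZIPIC. The pooled summit fell on base 170 of the Cp190 stretch, base 146 of the su(Hw) stretch and base 135 of the mod(mdg4) stretch, the last. The Chro summit lay inside the gene, outside the stretch shown, and the mod(mdg4) stretch covers only 1 side of its summit. Motifs within 100 bp on both sides of the optimal summits are counted separately below.

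Of the 10 genes, 3 had a summit of the authors' optimal set no more than 500 bp from an annotated transcription start, called a promoter peak here: Chro, Cp190 and BEAF-32. Over all protein-coding genes, 10.8% had one. The optimal set holds 3237 peaks and equals the strongest 3237 of the 30000 pooled peaks. In the pooled list at any rank, 5 of the 10 genes had a promoter peak, with su(Hw) and mod(mdg4) added, against 33.3% of protein-coding genes. At any rank, 8 of the 10 had one in replicate 1, 5 in replicate 2 and 5 in replicate 3, where the shares over all protein-coding genes were 38.0%, 35.5% and 35.1%. Ibf1 and Ibf2 are both among the 8 but share a single peak, at rank 12690, and these lists include background. In all 3 replicates at any rank, 4 of the 10 genes had one, against 20.0%, and among the strongest 3237 peaks of each of the 3 replicates, 2 did, Chro and Cp190, against 7.01%. With 10 genes, 1 gene moves such a share by 10 percentage points, and the peaks of Chro and Cp190 were known when the list was made.

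**Figure D1:**
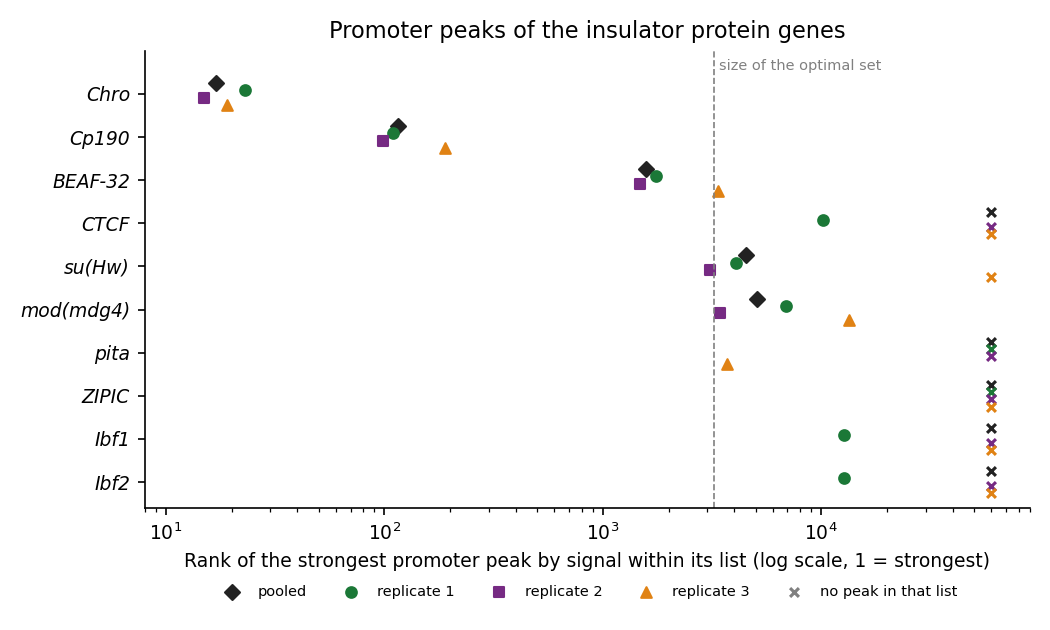
Rank by signal (log axis, 1 is strongest) of the strongest promoter peak of each gene in the pooled list and in the 3 replicates, each of which holds 30000 peaks; a cross at the right marks a list with no promoter peak for that gene, and the dashed line marks 3237. Chro sits between 15 and 23 and Cp190 between 99 and 190 in the replicates, and ZIPIC has crosses only. BEAF-32 lies between 1483 and 1755 in the pooled list and replicates 1 and 2, and just past the dashed line (3367) in replicate 3.

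**Figure D2:**
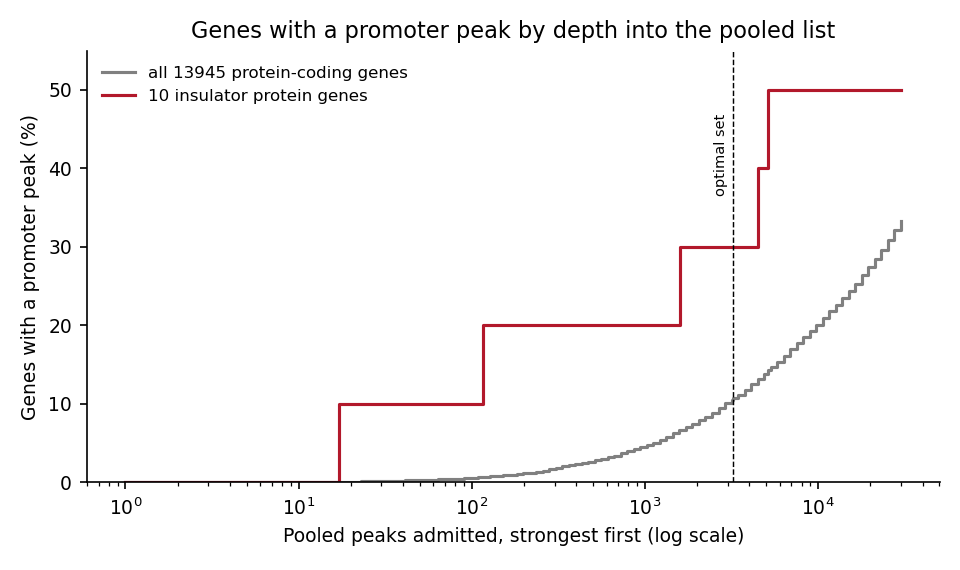
Share of genes with a promoter peak (y axis, %) as pooled peaks are admitted from the strongest down (x axis, log scale), for the 10 insulator protein genes and for all protein-coding genes. The steps of the 10 genes are Chro at rank 17, Cp190 at 116, BEAF-32 at 1580, su(Hw) at 4503 and mod(mdg4) at 5100; at 3237 peaks the shares are 30% and 10.8%.

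Among the partner proteins, Chro, which binds interband chromatin, had the strongest peak (FBgn0044324, chromosome 3L, 22873702 to 22878984, minus strand). The peak (22878725 to 22879096) had a pooled signal of 1802 and rank 17, and place 10 among the 1500 protein-coding genes that had an optimal promoter peak. The signal was 463 in replicate 1, 897 in replicate 2 and 437 in replicate 3, with ranks of 23, 15 and 19 (19 ± 4, mean ± SD, n = 3). The signal scale between lists is not given, so ranks rather than signals are compared across replicates, and in each of them the peak was among the 23 strongest. The summit lay 93 bp downstream of the outermost of the 3 annotated starts and 123 bp upstream of the start used by 3 of the 5 transcripts. That position is in the 5′ untranslated region of the longest transcript. Across replicates the summit lay 74 to 98 bp downstream of the outermost start (83.3 ± 12.9 bp, SD, n = 3). The same summit lay 198 bp upstream of Ssl1, a TFIIH subunit gene on the other strand whose start is 105 bp from that of Chro. The peak cannot be assigned to either gene, and it covered all of the 104-base gap shown above. Further in the gene, the lists held peaks only in replicate 1, at ranks 17579 and 22399.

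Cp190, the partner that several insulator factors share, came next (FBgn0000283, chromosome 3R, 15270432 to 15275241, minus strand). Its peak (15275220 to 15275573) had a pooled signal of 963 and rank 116. The signal was 270.0 in replicate 1, 485 in replicate 2 and 215 in replicate 3, with ranks of 109, 99 and 190 (133 ± 49.9, SD, n = 3). No replicate rank of Cp190 overlapped those of Chro. The summit lay 111 bp upstream of the outermost start in the pooled list and 101 to 136 bp upstream in the replicates, always between the genes. It lay 170 bp upstream of CG4338, which runs the other way, and thus inside the 280-base gap shown above. No peak of any list had its summit inside the Cp190 gene.

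The third partner, mod(mdg4), differed in that its strongest peak was not at its start (FBgn0002781, chromosome 3R, 21350846 to 21377401, minus strand, 26556 bp). The gene is known for trans-splicing, in which a common 5′ part is joined to alternative 3′ exons made from separate precursors, some on the other strand. The annotation lists 22 transcripts with 1 start and 23 separate precursor genes. At the common start the pooled peak (21377168 to 21377611) had a signal of 116 and rank 5100, outside the optimal set, with the summit 11 bp downstream of the start. In replicate 2 the peak at the start ranked 3442, with a signal of 71.2 and its summit 10 bp downstream. In replicate 1 there were peaks 248 bp upstream (rank 6864) and 14 bp downstream (rank 12475), and in replicate 3 peaks 286 bp downstream (rank 13424) and 38 bp upstream (rank 13913). The replicate peaks that match the pooled one are those 14 bp downstream, 10 bp downstream and 38 bp upstream, and the other peak of replicate 3 had nearly the same signal (24.4 against 24).

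The peak inside mod(mdg4) was an optimal one (21365428 to 21365542, pooled signal 622, rank 319), 11927 bp downstream of the common start. Its signal was 209 in replicate 1, 317 in replicate 2 and 104 in replicate 3, with ranks of 207, 255 and 833. It was strong in all 3 replicates, less so in replicate 3 by rank. By the annotation the position is an intron of mod(mdg4) and the 5′ untranslated region of the precursor pre-mod(mdg4)-E, whose start is 14 bp away. Within 500 bp lay 3 distinct starts of 10 precursor genes: that of pre-mod(mdg4)-E, that of pre-mod(mdg4)-AB and pre-mod(mdg4)-C 184 bp on, and, on the other strand and 135 bp on, that of the 7 precursors AD, AE, U, V, W, X and Y. The sequence shown above runs from this summit to that start. The precursor start shared by AA, N and O had peaks in replicates 1 and 2 (ranks 2593 and 5138) and none in replicate 3 or the pooled list, and the starts at 21359768 (8 precursors) and 21360176 (T and Z) had none in any list.

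A further pair of optimal peaks flanked mod(mdg4). Upstream, a peak (21378664 to 21378792) of pooled signal 519 and rank 444 lay 1344 bp from the mod(mdg4) start and 232 bp upstream of tin, the heart regulator tinman, with ranks of 587, 532 and 463 in the replicates. Downstream, a peak (21349995 to 21350438) of pooled signal 252 and rank 1577 lay between genes, 629 bp past the 3′ end of mod(mdg4) and 616 bp upstream of aus. Its ranks were 1625, 1507 and 3358. Across the locus the replicates thus share 3 peaks, upstream of the gene, inside it and past its 3′ end, each stronger than the one at the common start.

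**Figure D3:**
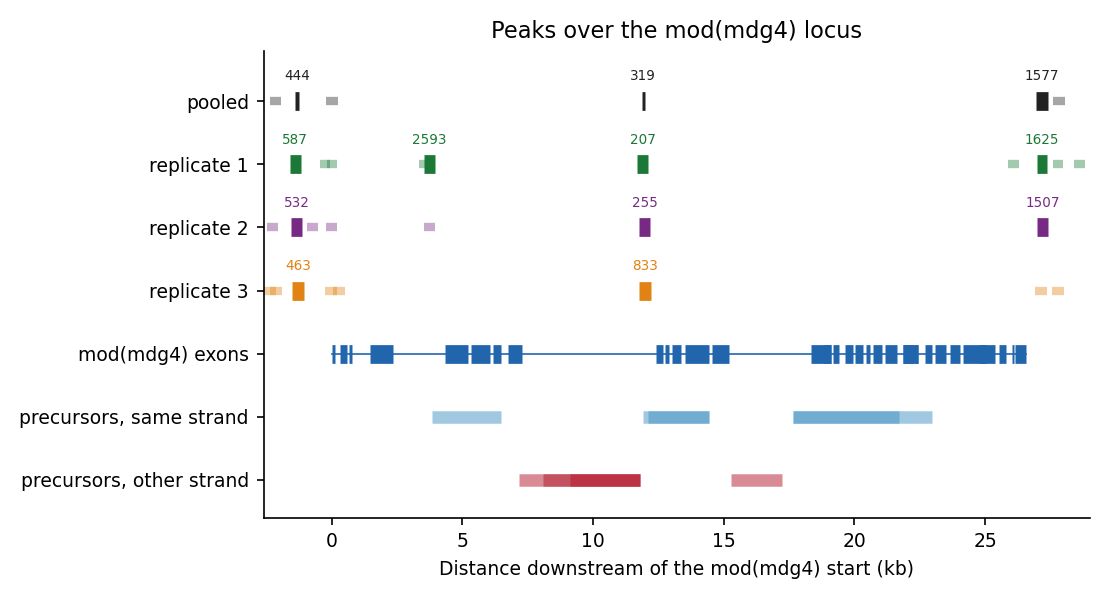
Peaks of the pooled list and the replicates over mod(mdg4), by distance downstream of its common start (kb), above the annotated exons and the precursor genes on either strand; thick blocks with a number are peaks ranked 3237 or better, with their rank, and thin pale blocks are weaker ones. The pooled peaks ranked 444, 319 and 1577 lie upstream of the gene, near the starts of diverging precursors and past the 3′ end. The one ranked 319 covers the start of pre-mod(mdg4)-E. The weaker block at 0 kb is the peak at the start.

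Of the genes for DNA-binding insulator factors, only BEAF-32 had an optimal promoter peak (FBgn0015602, chromosome 2R, 14770469 to 14772630, plus strand). The peak (14770188 to 14770631) had a pooled signal of 252 and rank 1580, against a lowest signal of 158 in the optimal set. The signal was 68.3 in replicate 1, 123 in replicate 2 and 48.3 in replicate 3, with ranks of 1755, 1483 and 3367 (2202 ± 1018, SD, n = 3). Replicate 3 was the weak one, with a rank just outside its strongest 3237. The summit lay 59 bp upstream of the outermost start, and 59 to 86 bp upstream in the replicates. It was also in an exon of asRNA:CR42254, an antisense RNA gene with a start 140 bp away. A second and weaker pooled peak (14770985 to 14771428, signal 93.4, rank 7212) lay 94 bp upstream of the third BEAF-32 start and 88 bp downstream of another start of that antisense RNA, one that lies 6 bp from the third BEAF-32 start on the other strand. It ranked 5440, 6818 and 26592 in the replicates.

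The factor gene su(Hw), whose product binds the gypsy insulator, had a weaker peak (FBgn0003567, chromosome 3R, 14304455 to 14308589, minus strand). The pooled peak (14308721 to 14309164) had a signal of 126 and rank 4503. It ranked 4055 in replicate 1 and 3080 in replicate 2, with signals of 40.8 and 76.8, and replicate 3 had no peak there. The summit lay 354 bp upstream of su(Hw) and 146 bp upstream of Polr2I, an RNA polymerase II subunit gene on the other strand, and so nearer to the neighbour. In order of pooled rank the genes were Chro, Cp190, BEAF-32, su(Hw) and mod(mdg4). Within replicates 1 and 2 the strongest promoter peaks kept that order. BEAF-32 ranked 1755 and 1483 there, su(Hw) 4055 and 3080, and mod(mdg4) 6864 and 3442. In replicate 3 su(Hw) had no peak, and the other genes kept the order. Between different replicates, ranks overlapped for BEAF-32 and su(Hw) (3367 in replicate 3 against 3080 in replicate 2) and for su(Hw) and mod(mdg4).

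**Figure D4:**
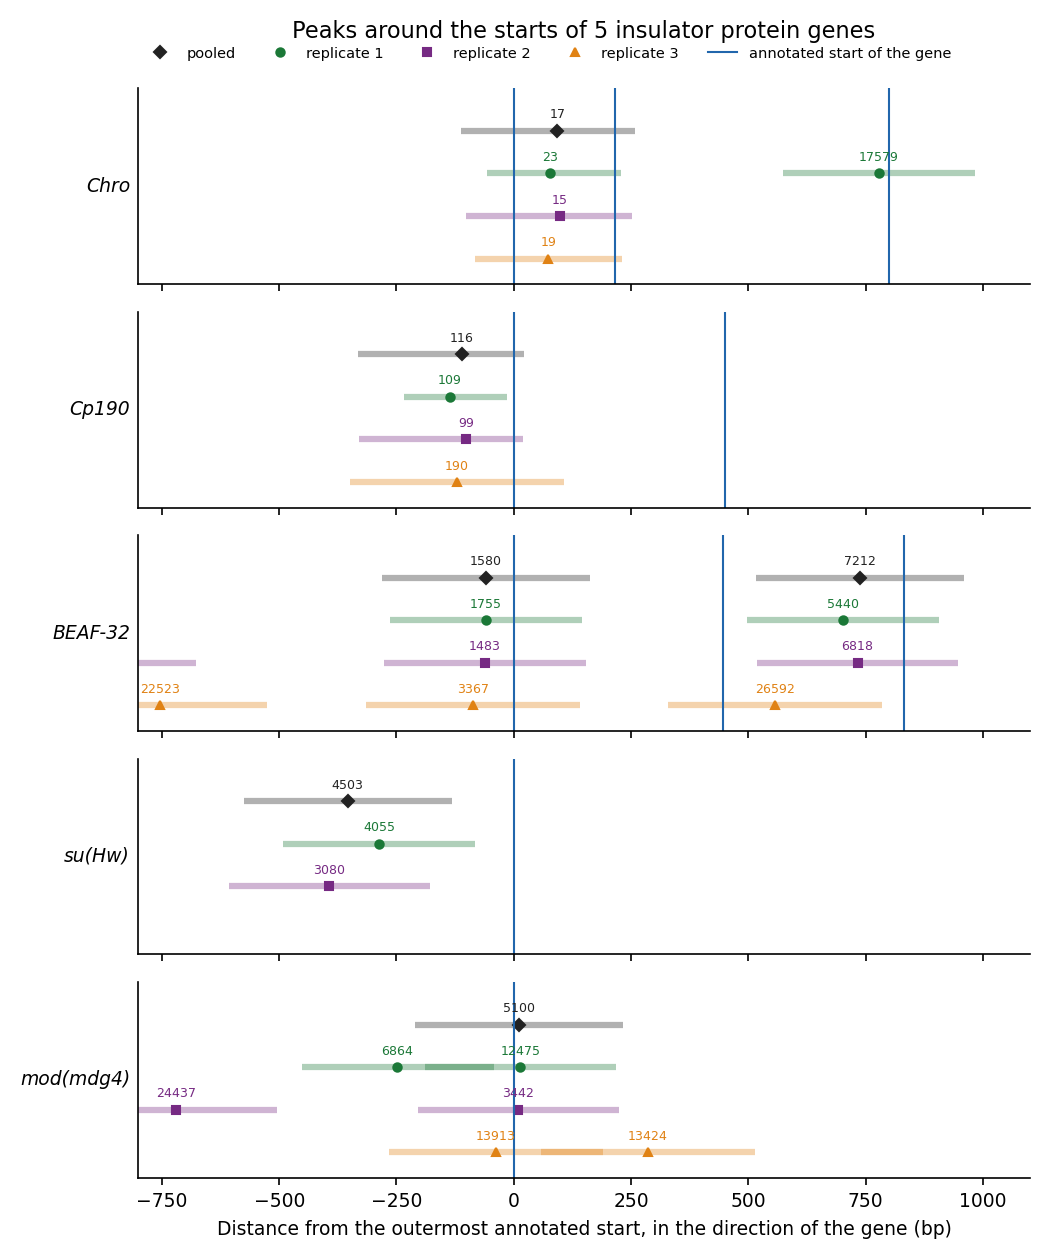
Peaks of the pooled list and the replicates (bars, summit as a symbol, rank above it) around the starts of 5 genes, by distance from the outermost annotated start in the direction of the gene (bp); blue lines are annotated starts. Summits of Chro, Cp190 and the first BEAF-32 peak line up between lists, those of su(Hw) lie 287 to 393 bp upstream with none in replicate 3, and replicates 1 and 3 each have a pair of weak peaks near the mod(mdg4) start.

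The other 5 genes had no optimal or pooled promoter peak. CTCF, the fly homologue of the vertebrate insulator factor (FBgn0035769, chromosome 3L, 7353578 to 7356713), had one in replicate 1 alone, with a signal of 25.3 and rank 10153, 124 bp downstream of its start. Low peaks also lay in its 3′ untranslated region, at rank 27306 in replicate 1 and 20227 in replicate 3. Ibf1 (FBgn0037670, chromosome 3R, 9258964 to 9260400) and Ibf2 (FBgn0037669, 9257727 to 9258501), which share a gap of 463 bp and run away from each other, had a single peak between them, in replicate 1 at rank 12690. The gene pita (FBgn0034878, chromosome 2R, 23548967 to 23554712) had one in replicate 3, with a signal of 45.6 and rank 3717. Its summit lay 140 bp downstream of the inner pita start and in the 5′ untranslated region of Dcp-1, a caspase gene on the other strand. Further peaks lay in the pita coding sequence at rank 13338 in replicate 1 and rank 17344 in replicate 3, 2005 and 2054 bp downstream of the inner start, and in an intron at rank 12279 in replicate 3. ZIPIC (FBgn0039740, chromosome 3R, 30035240 to 30036870) had no peak within 1500 bp of the gene in any of the 5 lists. The nearest optimal summit was 24927 bp from the start for CTCF, 15569 bp for pita, 11858 and 11395 bp for Ibf1 and Ibf2, 9439 bp for ZIPIC and 8405 bp for su(Hw). The median over the 10 genes was 8922 bp and that over protein-coding genes 13377 bp.

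A start of another gene on the opposite strand within 1000 bp upstream, a divergent start, was found for 6 of the 10 genes, against 39.6% of protein-coding genes. The 6 are Chro (Ssl1, 105 bp), Cp190 (CG4338, 281 bp), BEAF-32 (asRNA:CR42254, 6 bp), su(Hw) (Polr2I, 500 bp), Ibf1 and Ibf2. For BEAF-32 the 6 bp gap is at its innermost start (14771301), away from the optimal peak at its outermost start (14770469). Upstream of that outermost start, another start of the antisense RNA (14770270) lay 140 bp from the optimal summit. All 3 genes with an optimal promoter peak were among these 6 genes, and none of the other 4 had one. Over all protein-coding genes, 16.3% of those with a divergent start and 7.14% of the others had an optimal promoter peak. Whether the peaks of the insulator genes follow from this arrangement was not tested. Inside the gene, 2 of the 10 had an optimal summit, Chro and mod(mdg4), against 9.21% of protein-coding genes. For Chro this summit is that of the promoter peak already counted.

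The 3 protein-coding genes most like each peak-bearing gene were taken as those with the smallest Euclidean distance of log2 rank over the 3 replicates, among the genes with a promoter peak in every replicate that do not share its peak. For Chro these were CG18549 (distance 0.61), Fkbp14 (0.65) and PNPase (0.67), with 2790 genes compared. For Cp190 they were CG8360 and CG8372 (both 0.38), which had the same ranks of 101, 98 and 148, and CG5757 (0.45). For BEAF-32 they were Obp99b (0.11), with ranks of 1830, 1566 and 3490, klar (0.14) and fbl (0.22), with 2791 genes compared. Each such likeness rests on 3 values.

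Motifs were counted on both strands in a window from 250 bp before to 50 bp after the start with most transcripts. The letters TATCGATA, the site of the promoter factor DREF, occurred in 7 of the 10 windows, against 9.23% of protein-coding promoters. The 7 were Cp190, mod(mdg4), BEAF-32, CTCF, pita, Ibf1 and Ibf2, each with 1 site. The shorter CGATA, bound by BEAF-32 in clusters and contained in TATCGATA, occurred in 9 of the 10 (all but su(Hw)), against 47.5%. Among protein-coding promoters with an optimal peak the shares were 10.4% for TATCGATA and 48.7% for CGATA. Read the other way, 12.1% of genes with the site and 10.6% of those without it had such a peak. Of the 7 insulator genes with the site, 2 had an optimal promoter peak and 5 did not, while Chro, with the strongest peak, had no such site.

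The sites of 5 of these genes are shown with 11 bases on either side, on the strand of the gene, with TATCGATA in capitals, because they are what most of these promoters share whether or not they carry a peak.
Cp190 (chr3R:15275227-15275256): tatcgcatggcTATCGATAgctgccgagcg
CTCF (chr3L:7356716-7356745): accaatcgaacTATCGATAgctggcggtac
mod(mdg4) (chr3R:21377437-21377466): atattttaagcTATCGATAtattgtcactt
Ibf1 (chr3R:9258913-9258942): caaaatggtttTATCGATAtgtcgatacat
Ibf2 (chr3R:9258490-9258519): cgatggcatgtTATCGATAcatcggttgaa
Counted from a base in its middle, the site lay on the start itself for Cp190 (0 bp), 3 bp upstream for Ibf2, 17 bp for CTCF, 37 bp for Ibf1 and 50 bp for mod(mdg4). The sites not shown lay 64 bp upstream of the outer start of pita and 207 bp upstream of the outermost start of BEAF-32. A match is a run of letters and was not shown here to be bound.

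Of the remaining motifs, GAGAG, the letters of GAGA factor sites, was in none of the 10 windows, against 30.2% of protein-coding promoters and 36.8% of those with an optimal peak. AGNNGGCGC, a core of the CTCF site, was in none, against 2.8%. GGTCACACT, core promoter motif 1 bound by M1BP, was in 2, su(Hw) and ZIPIC, against 6.07%. TGCATA, a core of the su(Hw) site, was in 2, pita and Ibf1, against 15.3%, and TATAAA, the TATA box, was in 5, against 45.5%. CACACA was in 1, pita, against 19.4%. Within 100 bp of the 4 optimal summits at or in these genes, Chro had 1 CGATA and 1 TATAAA, Cp190 had 1 CGATA, mod(mdg4) had 2 TGCATA and BEAF-32 had no match. Of all 3237 optimal summits, 24.8% had CGATA, 37.8% had TATAAA and 15.5% had TGCATA within that distance.

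**Figure D5:**
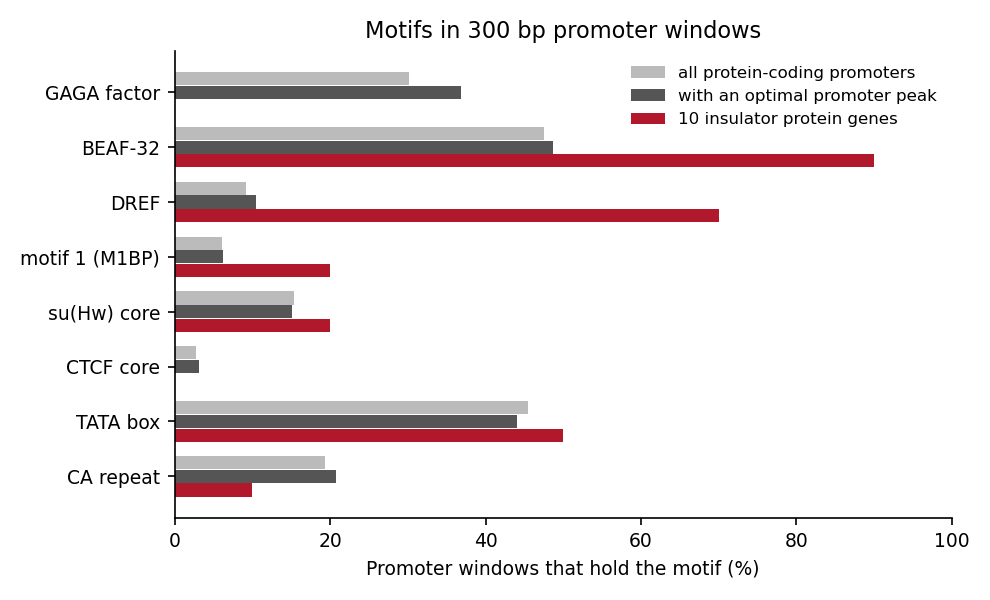
Share of promoter windows of 300 bp that hold each motif (x axis, %), named by the factor or element it is known for, for all protein-coding genes, for those with an optimal peak and for the 10 insulator protein genes, where 1 gene is 10%. The DREF site is in 70% of the 10 windows against 9.23% and 10.4% of the others, and the GAGA factor letters are in none of the 10.

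Beyond these 10 genes, 31 further genes of insulator cofactors, cohesin and condensin were counted. This list too was chosen with earlier results of these data known, so its counts are a description, with no test. An optimal promoter peak was found at 3 of 18 cofactor and further insulator genes and at 3 of 13 cohesin and condensin genes, 6 of 31 together (19.4%, against 10.8% of protein-coding genes). The count was 3 of 31 when support in replicates 2 and 3 was required (against 7.52% of protein-coding genes), 3 when support in replicates 1 and 3 was required (7.34%), and 3 with the 1618 stronger optimal peaks (6.75%), each time pds5, pzg and shep. The strongest was at pds5, a cohesin regulator (signal 718, rank 232, with ranks of 218, 200 and 479 in the replicates), shared with Mppe. The others were at shep, an RNA-binding protein gene tied to the gypsy insulator (355, rank 905), at pzg, which encodes a partner of Chro also called Z4 (296, rank 1210, shared with CG12974), at Trl, the GAGA factor gene (236, rank 1756), and at the condensin subunit genes Cap-H2 (173, rank 2835, shared with MED7) and barr (162, rank 3135, shared with lok), neither of which had a promoter peak in replicate 3. No promoter peak was found in any list at dwg, M1BP, Elba1, Elba2, Elba3, insv, Topors, vtd, wapl, SMC3, glu or Cap-D3. TATCGATA was in the promoter window of 8 of the 31, against 9.23% of protein-coding promoters: Cap-D2, Cap-H2, HIPP1, JIL-1, Top2, Topors, vtd and wapl. Of these, only Cap-H2 had an optimal promoter peak.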

How the data were processed

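Peaks came from transcription factor ChIP-seq of CG15011-GFP embryos in 3 biological replicates, with chromatin sheared to 200 to 800 bp, per the labels. The labels describe every sample as input control. The deposited notes instead derive each list from that replicate's alignment set against an alignment of another, control, experiment, and the samples were treated as immunoprecipitated chromatin. Per the deposited notes, the authors called a list on each replicate and on the pooled replicates, and derived the optimal set from the pooled list by irreproducible discovery rate (IDR), which scores the repeat of ranks between lists. Aligner, peak caller, their versions and the IDR cutoff: not given in the sources used here. Each deposited signal per peak is the authors' and is compared only within a list. The deposited −log10 q-value was used to order ties and in 1 alternative. Each replicate list and the pooled list holds 30000 peaks, including background, so list length says nothing of binding. Read depth is unknown. All lists share 1 control alignment, which was not analysed here.

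Coordinates are dm6, and all peaks on the 6 arms lie within the RefSeq Release 6 arms. Peaks were ranked by signal. A summit within 500 bp of any annotated start (Ensembl release 115, transposable elements left out) was a promoter peak. A summit outside its peak was replaced by the midpoint. The scripts (Python 3.11.15, pandas 2.3.3) were tested on planted peaks. The members, lists and motifs were chosen with earlier results of these data known. The rule for named genes takes all 10 members, genes that share their promoter summits, every further list gene with an optimal promoter peak, and the 3 genes nearest in replicate ranks. Of 32 further symbols, 1 matched no gene and was left out. Alternatives were the promoter window, the overlap rule, the stronger optimal peaks, the starts used, the peak order, the number of replicate peaks and leaving out each replicate.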

Additional observations from a re-analysis of the deposited data

How the results depend on the processing

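The count of 3 insulator genes with an optimal promoter peak held with promoter windows of 250 and 1000 bp, with only the 1618 stronger optimal peaks, with peaks that cover the start and with the outermost start only. It was 2 to 3 with each replicate left out: BEAF-32 dropped out without replicate 1 and without replicate 2, where the summit had to lie in one of the strongest 3237 peaks of both remaining replicates, replicate 3 included. The count with an optimal summit in the gene stayed at 2, and that among the strongest peaks of the replicates was 2 to 3 with a replicate left out. With a 250 bp window su(Hw) lost its pooled promoter peak, which left 4 genes in place of 5. With 6474 peaks from each replicate in place of 3237, the count of genes with a peak in all replicates was 3 in place of 2. For the in-gene, replicate and pooled counts, no share of protein-coding genes at the altered setting is given. Those counts thus show only how the number of insulator genes moved, and not how it compares with other genes. The count over protein-coding genes, 1500, was 941 with the stronger peaks, 810 with peaks that cover the start, and 1023 to 1215 with a replicate left out. The count of further architectural genes, 6 of 31, was 3 with the stronger peaks and 3 to 6 with a replicate left out (3 without replicate 1 and 3 without replicate 2). The settings with lower counts admit fewer peaks, fewer starts or a narrower stretch around each peak. The count of 7 genes with TATCGATA was the same with the outermost start and with any annotated start, both chosen after seeing the data. The shares over protein-coding genes were then 9.36% and 10.2%, in place of 9.23%. Ordered by q, the pooled rank was 4496 in place of 4503 for su(Hw) and 5101 in place of 5100 for mod(mdg4). No paired analysis was possible because there is 1 group. Read depth is unknown, so a missing peak does not show that the protein was absent.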

Other observations

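Peaks close to the insulator genes but nearest to other starts also differed between replicates. Near pita, the divergent pair wmd and levy, the latter a cytochrome c oxidase subunit gene, had peaks in replicate 1 (signal 56.8, rank 2352) and replicate 3 (signal 40.4, rank 4624) and none in replicate 2 or the pooled list within 1500 bp of pita. Downstream of Ibf1, ATP6AP2 had a promoter peak in replicate 1 at rank 4926. Past the 3′ end of mod(mdg4), a pooled peak of signal 103 and rank 6169 had its summit 33 bp downstream of the aus start. In replicates 1 and 3 peaks at that start ranked 4803 and 6620, with summits 15 and 3 bp upstream of it, and replicate 2 had none.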
